A study of Mus musculus with 9 samples.

Results

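Guanylate binding proteins (GBPs) were examined in B16F10 cells, a mouse melanoma line, in cultures labelled as Tada2b knockout and in cultures with a guide named for GFP. The members were 8 listed Gbp genes, Gbp2, Gbp3, Gbp4, Gbp5, Gbp6, Gbp7, Gbp8 and Gbp9, picked by name, with earlier results of these data known, out of 54752 gene rows in the deposited count table. The table held 12 Gbp genes in all, and the other 4 were Gbp2b, Gbp10, Gbp11 and the pseudogene Gbp2-ps. The 9 libraries formed 3 groups of 3. The groups Tada2bsg1 (guide 1) and Tada2bsg2 (guide 2) carry the genotype Tada2b knockout, and the group GFPsg carries the genotype WT. All groups shared the same line and the same medium, DMEM with 10% FBS. The labels do not say whether a group was 1 clone or a pool of cells, nor whether its replicates were separate cultures, and a p-value here therefore reflects variation among these libraries, which may be technical.

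GBPs are large GTPases of the dynamin superfamily whose transcription is switched on by interferons. Interferon receptors signal through JAK kinases to transcription factors that bind interferon-stimulated response elements (ISRE), with IRF9 as a subunit, or gamma-activated sites (GAS). The proteins assemble on the membranes of vacuoles that hold pathogens and on bacteria, where they recruit further defence factors and help to set off inflammasomes, and some are anchored to membranes by a lipid attached at their C-terminus. In tumour cells they are widely used as readouts of interferon signalling. The TADA2B protein is a subunit of SAGA, a transcriptional coactivator that acetylates histones.

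Total counts ran from 70.6 to 76.9 M per library (M, mega). Tada2b itself was not lower in the libraries labelled knockout. It averaged 32.8 ± 0.53 CPM with guide 1 and 27.0 ± 1.73 CPM with guide 2, against 26.6 ± 1.40 CPM in GFPsg (CPM, counts per 1 M counts of a library scaled by trimmed mean of M-values; mean ± SD, n = 3 each). Its log2 change in the knockout contrast, which sets the mean of both guides against GFPsg, was 0.16 ± 0.05 (SE; adjusted p = 0.0101 by edgeR's quasi-likelihood test with Benjamini-Hochberg adjustment over all 17931 genes tested). Without GFPsg replicate 2 that p was 0.0534, the highest of 16 alternatives that ran from 0.0012 to 0.0534. The difference was called with guide 1 (log2 change 0.30 ± 0.06, SE; adjusted p = 0.0002 by edgeR) and not with guide 2 (0.02 ± 0.06; adjusted p = 0.81), and Tada2b was called lower with guide 2 than with guide 1 (log2 difference -0.28 ± 0.05, SE; adjusted p = 0.0067). A guide can disrupt a protein without lowering its mRNA, and whether these did was not measured, so the knockout stands here as a label. The melanocytic identity of the line was visible in every library, although all 7 melanocytic markers were lower in the labelled knockout libraries. Their summed level was 4973 to 5210 CPM with guide 1 and 7032 to 7274 CPM with guide 2, against 20322 to 21118 CPM in GFPsg.

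Promoter sequence was at hand for 4 members, all on chromosome 3, and is shown because 2 motifs of the interferon pathway could be read in it. Each window runs 250 bases before and 50 bases from a RefSeq start site (build GRCm38.p6, plus strand). The letters searched on both strands were GAAA, 2 free bases and GAAA for the ISRE, which on the other strand reads TTTC, 2 free bases and TTTC, and TTCNNNGAA for the GAS, which reads the same on both strands. Capitals mark every match, and in Gbp3 overlapping matches run together. The windows are chr3:142620413-142620712 for Gbp2, chr3:142559794-142560093 for Gbp3, chr3:142530086-142530385 for Gbp7 and chr3:142496684-142496983 for Gbp5.
Gbp2: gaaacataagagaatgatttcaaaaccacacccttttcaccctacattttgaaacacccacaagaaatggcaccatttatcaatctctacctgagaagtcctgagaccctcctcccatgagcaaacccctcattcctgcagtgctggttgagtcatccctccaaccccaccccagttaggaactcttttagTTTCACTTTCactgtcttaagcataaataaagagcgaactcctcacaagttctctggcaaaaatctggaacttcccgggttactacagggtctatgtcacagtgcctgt
Gbp3: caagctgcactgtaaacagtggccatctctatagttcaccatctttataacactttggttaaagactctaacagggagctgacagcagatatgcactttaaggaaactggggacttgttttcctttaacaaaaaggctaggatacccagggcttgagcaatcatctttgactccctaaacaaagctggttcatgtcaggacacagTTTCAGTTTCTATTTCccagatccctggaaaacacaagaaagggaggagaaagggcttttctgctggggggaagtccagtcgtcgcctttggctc
Gbp7: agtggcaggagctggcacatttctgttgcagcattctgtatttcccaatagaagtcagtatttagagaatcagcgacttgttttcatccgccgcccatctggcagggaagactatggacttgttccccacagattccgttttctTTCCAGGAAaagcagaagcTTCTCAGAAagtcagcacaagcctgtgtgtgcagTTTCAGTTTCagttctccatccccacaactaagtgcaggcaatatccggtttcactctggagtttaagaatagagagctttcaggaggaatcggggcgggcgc
Gbp5: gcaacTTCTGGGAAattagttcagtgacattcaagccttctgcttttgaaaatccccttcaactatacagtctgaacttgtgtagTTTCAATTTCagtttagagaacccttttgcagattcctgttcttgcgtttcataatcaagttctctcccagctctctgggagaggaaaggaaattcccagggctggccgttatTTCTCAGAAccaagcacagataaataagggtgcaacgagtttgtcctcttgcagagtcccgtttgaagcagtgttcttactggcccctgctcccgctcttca

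An ISRE match was present in 4 of the 5 member windows. Counted from the start site, it began at position -59 in Gbp2, -53 in Gbp7 and -165 in Gbp5, and Gbp3 held 2 overlapping matches, at -45 and -39. All of them were on the other strand. The second RefSeq window of Gbp3, at chr3:142560106-142560405, held neither motif. Gbp2b, a Gbp gene outside the member list with more of its few reads in GFPsg, also had a window. It held an ISRE match at -137, also on the other strand, and no GAS match. GAS matches were found in 2 windows, at -245 and -52 in Gbp5 and at -106 and -87 in Gbp7, and none of them overlapped an ISRE match. Of all 32851 promoter windows of the same length, 3.44% held an ISRE match, 8.30% a GAS match and 0.454% both. A match is a string of letters in a window and not a measured binding site.

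The 8 members lie in 2 clusters (mm10 coordinates, GENCODE M21). The chromosome 3 cluster spans bases 142493978 to 142669041, 175 kb of plus strand genes, and holds Gbp5, Gbp7, Gbp3 and Gbp2. The chromosome 5 cluster spans bases 105014150 to 105346472, 332 kb of minus strand genes, and holds Gbp8, Gbp9, Gbp4 and Gbp6. The coding sequences were more alike within the chromosome 5 cluster, at 90.2% to 92.9% identity over its 6 member pairs, than within the chromosome 3 cluster, at 64.4% to 78.3% over its 6 pairs. The 16 pairs that cross clusters had 63.4% to 75.4% identity. The closest relative of Gbp6 was Gbp10, at 98.4% identity.

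**Figure D1:**
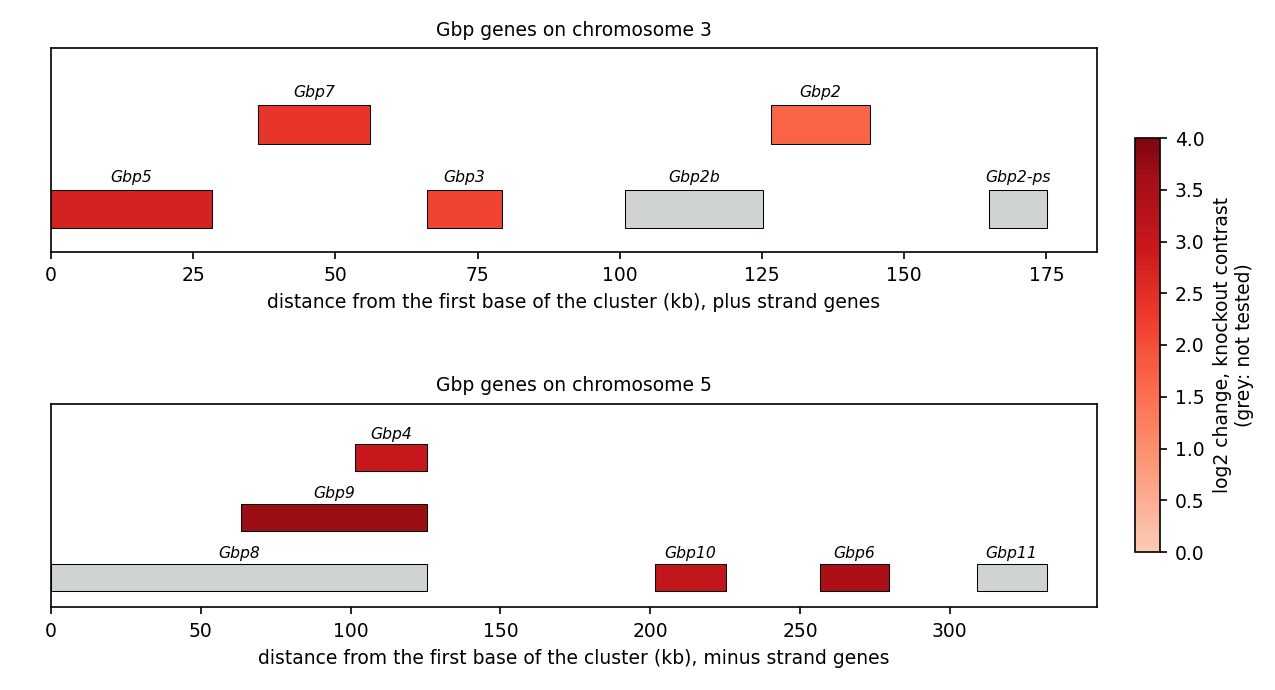
Position of each Gbp gene in the chromosome 3 cluster (upper panel) and the chromosome 5 cluster (lower panel), as distance in kb from the first base of the cluster, coloured by the log2 change in the knockout contrast from 0 to 4 (grey, not tested). Every tested gene in both clusters is shaded, with Gbp2 the palest at 1.70 and Gbp9 the darkest at 3.68.

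All 7 members that could be tested were higher in the labelled knockout libraries than in GFPsg. In the knockout contrast 7 of 7 were called higher at an adjusted p under 0.05, where 24.7% of all tested genes were called higher, 51.0% in either direction and 26.3% lower. All 7 were at least 3-fold higher, beside 4.18% of tested genes called higher by that much. Under scaling by library size alone, 63.3% of called genes were higher, where the main scaling gave 48.4%, and all 7 members stayed called higher. Their median log2 change was 2.76, beside -0.02 over all tested genes. Only Gbp2, Gbp3, Gbp6 and Gbp7 reached the minimum of the filter on low counts (0.134 CPM, 10 reads at the median library size) in every GFPsg library. Gbp6 was exactly at that minimum in GFPsg replicate 3, the library of median size, with 10 reads. Gbp4, Gbp5 and Gbp9 passed it through labelled knockout libraries alone, so they had to differ in order to be tested, and Gbp8 did not pass. Gbp4 passed through the guide 1 libraries alone. In each of the 7 tested members all 6 labelled knockout libraries lay above all 3 GFPsg libraries, as they did for 21.8% of tested genes.

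**Figure D2:**
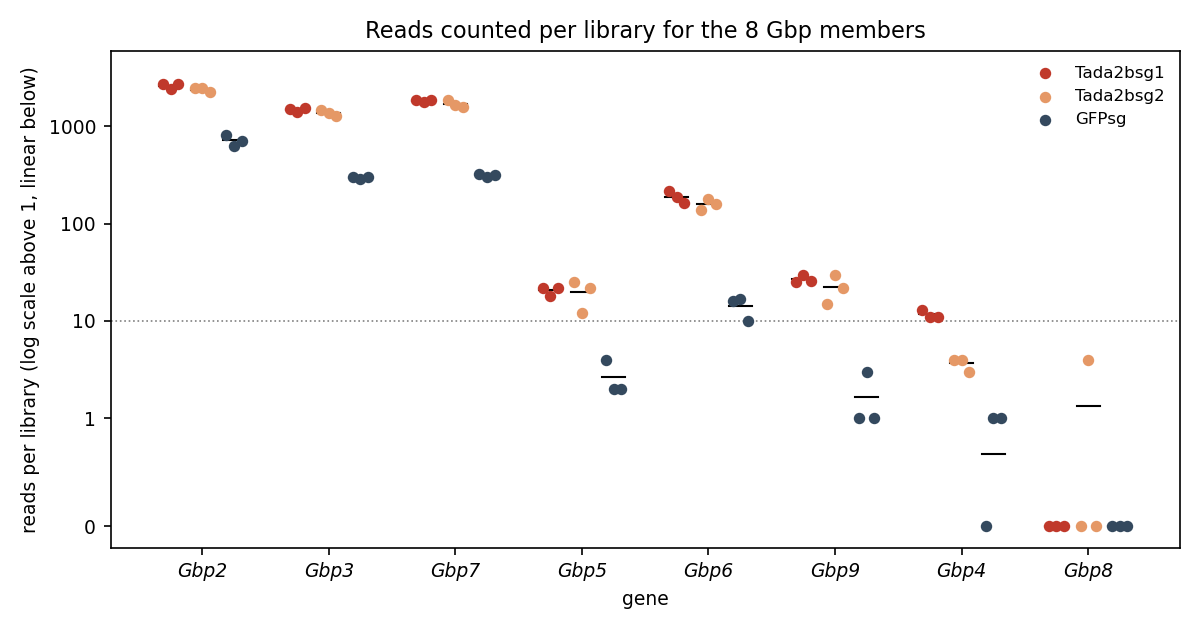
Reads counted for each member in each library (points; log scale above 1, linear below), with guide 1, guide 2 and GFPsg from left to right and a bar at each group's mean. The dotted line marks 10 reads. Every labelled knockout library lies above every GFPsg library in 7 members, and Gbp8 has reads in 1 library.

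Among the chromosome 3 members, Gbp2 was the most counted. Gbp2 (ENSMUSG00000028270, chromosome 3, 142620602 to 142638008) encodes a prenylated GBP that in mouse is recruited to the vacuole of Toxoplasma. It had 2734, 2448 and 2713 reads with guide 1 and 2470, 2455 and 2242 reads with guide 2, against 813, 629 and 716 reads in GFPsg. The lowest labelled knockout library, at 2242 reads, was far above the highest GFPsg library, at 813 reads. Gbp2 averaged 34.1 ± 1.05 CPM with guide 1, 31.8 ± 0.61 CPM with guide 2 and 10.1 ± 0.78 CPM in GFPsg (SD, n = 3 each). It was 3.24-fold higher in the knockout contrast (log2 change 1.70 ± 0.05, SE; adjusted p = 3.7e-14 by edgeR).

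Gbp3 and Gbp7, each other's nearest relatives at 78.3% coding identity, had larger changes than Gbp2. Gbp3 (ENSMUSG00000028268, chromosome 3, 142560026 to 142573209) had 1526, 1404 and 1541 reads with guide 1 and 1479, 1375 and 1275 reads with guide 2, against 300, 290 and 302 reads in GFPsg. The GFPsg libraries lay within 12 reads of each other and far under all the others. It was 4.47-fold higher (log2 change 2.16 ± 0.06, SE; adjusted p = 1.2e-14 by edgeR). Gbp7 (ENSMUSG00000040253, chromosome 3, 142530342 to 142550149), which in mouse takes part in the control of intracellular pathogens, had 1868, 1789 and 1856 reads with guide 1 and 1860, 1651 and 1600 reads with guide 2, against 325, 300 and 316 reads in GFPsg. Here too the groups labelled knockout stood clear of GFPsg. The gene shares 11.3% of its exon bases with Gm43802, which had no reads in any library. Gbp7 was 5.24-fold higher (log2 change 2.39 ± 0.06, SE; adjusted p = 2.8e-15 by edgeR). The 95% intervals of the log2 changes were 1.59 to 1.81 for Gbp2, 2.03 to 2.29 for Gbp3 and 2.26 to 2.52 for Gbp7, so that of Gbp2 lay under both others.

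Gbp5 (ENSMUSG00000105504, chromosome 3, 142493978 to 142522344), a GBP known for promoting assembly of the NLRP3 inflammasome, was counted at a far lower level. It had 22, 18 and 22 reads with guide 1 and 25, 12 and 22 reads with guide 2, against 4, 2 and 2 reads in GFPsg. The groups did not overlap, but GFPsg held few reads. Its log2 change was 2.76 ± 0.47 (SE; adjusted p = 9.9e-05 by edgeR), and the ratio of the reads pooled per group, 121 over both guides and 8 in GFPsg, was 7.03 with a 95% interval for counting error alone of 3.46 to 16.7.

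Of the chromosome 5 members, Gbp6 was the only one with more than 30 reads in a library. Gbp6 (ENSMUSG00000104713, chromosome 5, 105270702 to 105293698) had 215, 190 and 163 reads with guide 1 and 139, 179 and 158 reads with guide 2, against 16, 17 and 10 reads in GFPsg. All labelled knockout libraries were far above the GFPsg libraries, and the ranges of both guides overlapped. It averaged 2.46 ± 0.33 CPM with guide 1, 2.11 ± 0.25 CPM with guide 2 and 0.204 ± 0.059 CPM in GFPsg, an 11.2-fold higher level in the knockout contrast (log2 change 3.48 ± 0.21, SE; adjusted p = 2.7e-10 by edgeR). Its 95% interval, 3.04 to 3.92, lay above those of Gbp2, Gbp3 and Gbp7. Of the stretches of 100 bases in Gbp6 transcripts, 64.5% also occurred in another gene, chiefly Gbp10 and Gm43302, and reads from such stretches cannot be assigned to 1 gene. The level of Gbp6 is therefore uncertain.

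Gbp9 (ENSMUSG00000029298, chromosome 5, 105077630 to 105139539) had 25, 30 and 26 reads with guide 1 and 15, 30 and 22 reads with guide 2, against 1, 3 and 1 reads in GFPsg. The lowest labelled knockout library held 15 reads and the highest GFPsg library 3. The log2 change was 3.68 ± 0.51 (SE; adjusted p = 1.0e-05 by edgeR) and 4.41 without GFPsg replicate 2, the library with 3 reads. Pooled reads gave a ratio of 13.8 (148 reads over both guides and 5 in GFPsg), with a counting interval of 5.77 to 43.0. Gbp4 (ENSMUSG00000079363, chromosome 5, 105115767 to 105139586) had 13, 11 and 11 reads with guide 1 and 4, 4 and 3 reads with guide 2, against 0, 1 and 1 reads in GFPsg. All 3 groups were apart, with guide 2 between the others. Gbp4 was called higher in the knockout contrast (log2 change 2.98 ± 0.72, SE; adjusted p = 0.0022 by edgeR). That fitted change depends on the prior count, and pooled reads, 46 over both guides and 2 in GFPsg, gave a ratio of 10.7 with a counting interval of 2.80 to 90.9.

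Gbp8 (ENSMUSG00000034438, chromosome 5, 105014150 to 105139540) was not tested. It had no reads with guide 1, 0, 4 and 0 reads with guide 2, and no reads in GFPsg. With 3 reads taken as the limit that a count of 0 allows, a level of up to 0.0380 to 0.0450 CPM in a library, depending on its depth, was not detectable. Gbp8, Gbp9 and Gbp4 are annotated with a common first exon, but it makes up only 1.77%, 1.16% and 0.814% of their exon bases.

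Both guides gave the same direction in every tested member. With guide 1 all 7 were called higher against GFPsg, beside 23.8% of all tested genes, and with guide 2 all 7 were called higher, beside 22.1%. Among these, Gbp4, Gbp5 and Gbp9 were tested only because they were high in labelled knockout libraries, Gbp4 in those of guide 1. Only Gbp2, Gbp3, Gbp6 and Gbp7 were free of that limit, Gbp6 with a GFPsg library exactly at the minimum. The log2 changes with guide 1 and guide 2 were 1.75 and 1.65 for Gbp2, 2.20 and 2.12 for Gbp3, and 2.43 and 2.36 for Gbp7. They were 3.59 and 3.37 for Gbp6, 3.80 and 3.56 for Gbp9 (4.53 and 4.29 without GFPsg replicate 2), and 2.78 and 2.75 for Gbp5. Both contrasts share the GFPsg libraries. The call of Gbp4 with guide 2 was the least secure of the 14, with a log2 change of 2.18 ± 0.85 (SE; adjusted p = 0.0470 by edgeR), and it was lost in 12 of 15 alternative analyses, among them each of the 9 that left out 1 library (adjusted p over the 15 from 0.0221 to 0.165). Pooled over the group, 11 reads with guide 2 against 2 reads in GFPsg gave a ratio of 5.18 with a counting interval of 1.13 to 48.1.

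**Figure D3:**
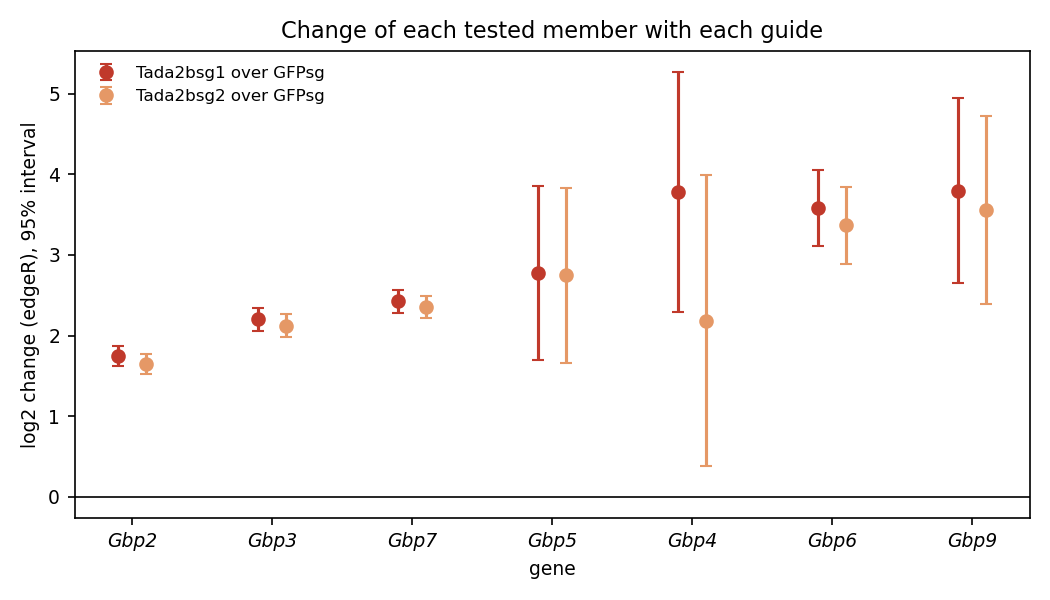
Log2 change of each tested member against GFPsg, with guide 1 and guide 2 side by side (points, edgeR estimate; bars, 95% interval). The intervals of both guides overlap in every member, all lie above 0, and Gbp4 with guide 2 comes closest to 0. Gbp4, Gbp5 and Gbp9 passed the filter on low counts through labelled knockout libraries alone.

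The guides were also set directly against each other. Of the 7 tested members 0 were called for guide 2 over guide 1 by edgeR's quasi-likelihood test, and 1 had an unadjusted p under 0.05. Of all tested genes 3.68% were called, so 0 of 7 is near that share and nothing is read from it. The estimates of all 7 were below 0, from -1.60 to -0.03, beside a median of -0.003 over all tested genes. The share of all tested genes below 0 was not counted, and the sign of Gbp5 changed in some alternatives. Nothing is read from this direction either. DESeq2 and limma voom also called 0, although DESeq2 gave no adjusted p for 3 of the 7. The log2 difference of guide 2 over guide 1 was -0.10 for Gbp2 (95% interval -0.21 to 0.01), -0.08 for Gbp3 (-0.20 to 0.05) and -0.07 for Gbp7 (-0.19 to 0.05). For Gbp6 it was -0.22 (-0.55 to 0.12). The sparse genes allowed wider intervals, -0.82 to 0.77 for Gbp5 and -0.99 to 0.52 for Gbp9. The member with the unadjusted p under 0.05 was Gbp4, at -1.60 (-2.69 to -0.51; adjusted p = 0.112 by edgeR). It had 4, 4 and 3 reads with guide 2 and 13, 11 and 11 reads with guide 1. Gbp4 passed the filter on low counts through guide 1 alone, so it was tested only because guide 1 was high. Nothing is therefore read from this difference. The 7 melanocytic markers were all called higher with guide 2 than with guide 1, with a median log2 difference of 0.50.

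Per kilobase of exon, the order of the upper members was the same in the 3 groups. Gbp2 stood first, at 13.6 ± 0.42 CPM per kb with guide 1, 12.6 ± 0.24 CPM per kb with guide 2 and 4.03 ± 0.31 CPM per kb in GFPsg. Gbp3 followed, at 5.92, 5.61 and 1.29 CPM per kb in the same groups, then Gbp7, at 4.25, 4.04 and 0.790 CPM per kb, and Gbp6, at 0.412, 0.355 and 0.0342 CPM per kb. The ranges of these 4 did not overlap within any group. Below them the order was less firm. With guide 1 Gbp9, Gbp5, Gbp4 and Gbp8 followed without overlap. With guide 2 Gbp9 overlapped Gbp5, and Gbp4 overlapped Gbp8. In GFPsg Gbp5 overlapped Gbp9, and Gbp4 overlapped Gbp8.

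The summed level of the 8 members was 80.5 ± 1.15 CPM with guide 1 and 75.6 ± 2.81 CPM with guide 2, against 19.1 ± 0.57 CPM in GFPsg. Gbp2, Gbp3 and Gbp7 made up 96.0%, 96.4% and 98.6% of it in guide 1, guide 2 and GFPsg. The make-up of the sum was not the same. Gbp2 contributed 41.6% to 42.8% of it in the guide 1 libraries and 41.2% to 43.0% in the guide 2 libraries, against 50.6% to 55.7% in GFPsg. Gbp7 contributed 29.2% to 30.4% with guide 1 and 28.9% to 31.0% with guide 2, against 22.3% to 24.2% in GFPsg. Gbp6 contributed 2.57% to 3.36% with guide 1 and 2.32% to 3.13% with guide 2, against 0.742% to 1.37% in GFPsg. For these 3 genes the labelled knockout and GFPsg ranges did not overlap. The same held for Gbp3, at 23.8% to 24.3% with guide 1 and 24.0% to 24.7% with guide 2, against 20.6% to 23.3% in GFPsg. It also held for the sparse Gbp9, at 0.390% to 0.509% with guide 1 and 0.250% to 0.525% with guide 2, against 0.0685% to 0.242% in GFPsg. The ranges of Gbp4, Gbp5 and Gbp8 overlapped. Per kilobase, the ratio of Gbp7 to Gbp2 was 0.313 ± 0.012 with guide 1 and 0.320 ± 0.018 with guide 2, against 0.197 ± 0.017 in GFPsg, and that of Gbp3 to Gbp2 was 0.437 ± 0.006, 0.444 ± 0.016 and 0.322 ± 0.036 in the same groups. No test was made of these shares and ratios.

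**Figure D4:**
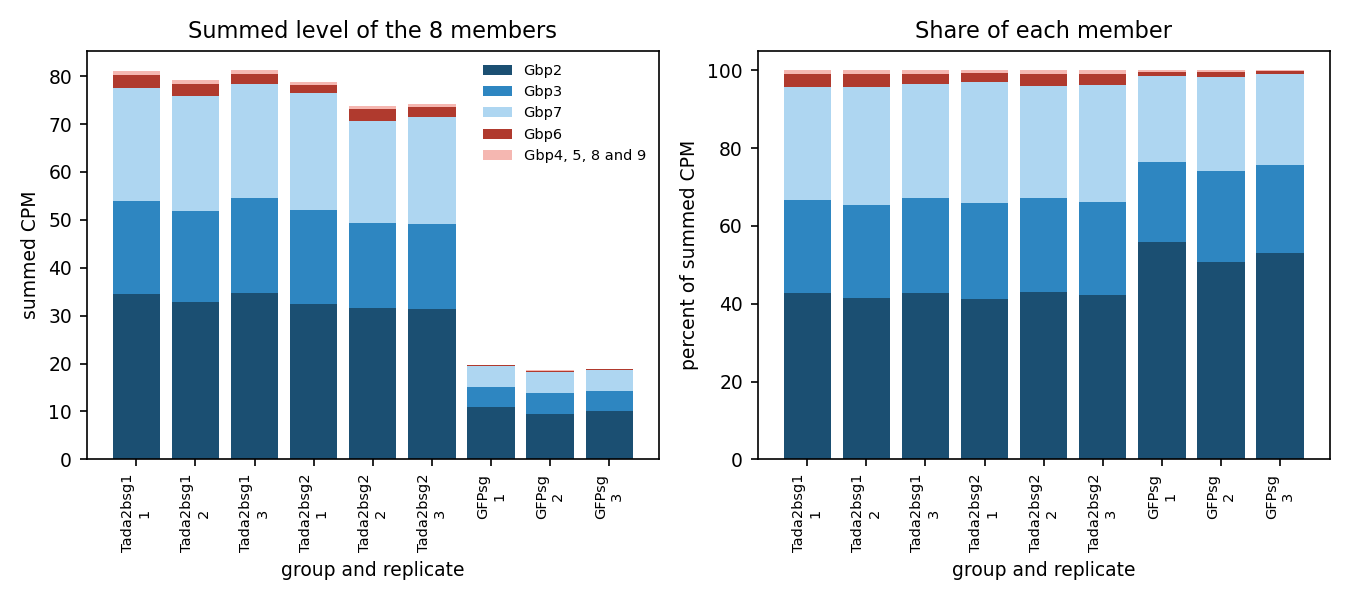
Summed CPM of the 8 members in each library (left) and the percent of that sum from each member (right); Gbp4, Gbp5, Gbp8 and Gbp9 are drawn together. The sum is 73.7 to 81.2 CPM in the labelled knockout libraries and 18.6 to 19.7 CPM in GFPsg, and the Gbp2 share is smaller in every labelled knockout library than in any GFPsg library.

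The Gbp genes outside the member list did not all behave alike. Gbp10, the near-copy of Gbp6, had 15, 13 and 11 reads with guide 1 and 25, 19 and 15 reads with guide 2, against 3, 1 and 1 reads in GFPsg. It was called higher in the knockout contrast (log2 change 3.07 ± 0.52, SE; adjusted p = 9.2e-05 by edgeR), at 3.71 without GFPsg replicate 1, with 73.5% of its stretches of 100 bases shared with another gene. Gbp10 passed the filter on low counts through labelled knockout libraries alone, so it had to differ in order to be tested. Gbp2b, known earlier as Gbp1 in mouse, had 1, 2 and 0 reads with guide 1 and 1, 1 and 1 reads with guide 2, against 6, 4 and 3 reads in GFPsg. Gbp11 had 3, 3 and 3 reads with guide 1 and 2, 6 and 4 reads with guide 2, against 5, 9 and 15 reads in GFPsg. Neither was tested. Their pooled-read ratios of labelled knockout to GFPsg were 0.215 (counting interval 0.0669 to 0.605) for Gbp2b and 0.337 (0.182 to 0.611) for Gbp11. Gbp2b, which lies between Gbp3 and Gbp2, thus had more of its few reads in GFPsg, whereas both neighbours were called higher in the labelled knockout libraries. Gbp2-ps had no reads in any library.

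Of the genes that carry or restrain the interferon signal, 19 were listed and 18 tested. In the knockout contrast 12 were called higher, 4 were called lower and 2 were not called, where 24.7% of all tested genes were called higher and 26.3% lower. The median log2 change was 0.75. Irf9, which encodes the DNA-binding subunit of the factor that acts at ISREs, averaged 47.1 ± 2.23 CPM with guide 1 and 44.9 ± 1.10 CPM with guide 2, against 6.74 ± 0.72 CPM in GFPsg (log2 change 2.77 ± 0.06, SE). Usp18, an inhibitor of type I interferon signalling, changed by 3.90 ± 0.07 and Stat3 by 1.39 ± 0.04 on the log2 scale. Usp18 was called lower with guide 2 than with guide 1 (log2 difference -0.24, adjusted p = 0.0183 by edgeR). The receptor chains did not share a direction. Ifngr2, at -0.68 ± 0.03, and Ifnar1, at -0.38 ± 0.03, were called lower, whereas of their partner chains Ifngr1, at 0.34 ± 0.05, was called higher and Ifnar2, at -0.09 ± 0.05, was not called. Jak1, at 0.42 ± 0.03, was called higher. These last 3 were named after their values were seen. Jak2, at -0.16 ± 0.04, was not called under scaling by library size alone, and Irf3, at -0.11 ± 0.04, lost its call in 13 of 16 alternatives.

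Transcripts of the interferons themselves were scarce. Of 21 interferon genes, 12 had no reads in any library, the highest count was 15 reads and none passed the filter on low counts. Ifnb1, named after its values were seen, had 2, 8 and 4 reads with guide 1 and 15, 1 and 11 reads with guide 2, against 1, 0 and 0 reads in GFPsg. Apart from the tie at 1 read, the labelled knockout libraries were higher. Ifnz, also named after its values were seen, had the most reads over all libraries, 24 with guide 1 and 16 with guide 2, against 26 in GFPsg. Ifng, which encodes interferon gamma, had no reads with either guide and 1 read in all of GFPsg.

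The immunity-related GTPases (IRGs), which in mouse load onto pathogen vacuoles together with GBPs, were mostly called in the same direction as the GBPs. Of 8 tested, 7 were called higher and 1 was not called, beside 24.7% of all tested genes called higher, with a median log2 change of 3.72. Among the 7 was Iigp1, named after its values were seen. It had 20 reads over all of GFPsg and fell to 0.0270 CPM in a GFPsg library, under the minimum of the filter on low counts. Iigp1 was therefore tested only because it was high in labelled knockout libraries. Irgm1 averaged 79.1 ± 1.95 CPM with guide 1 and 78.8 ± 7.11 CPM with guide 2, against 22.3 ± 1.21 CPM in GFPsg. Its log2 change was 1.82 ± 0.06, and those of Irgm2, Igtp and Tgtp2 were 3.59 ± 0.09, 3.85 ± 0.09 and 4.27 ± 0.14 (SE). Tgtp2 has a near-identical copy, Tgtp1, so reads may be split between them. Igtp was called lower with guide 2 than with guide 1 (log2 difference -0.28, adjusted p = 0.0319 by edgeR).

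For the lists on the placing of GBPs and on lipid anchors, 5 of 11 and 3 of 9 genes were called. These shares were near or under the 51.0% of all tested genes that were called, and nothing is read from them. Of 11 tested genes of the ubiquitin-like conjugation system that directs GBPs to vacuoles, 1 was called higher, 4 were called lower and 6 were not called, with a median log2 change of -0.06. The higher one was Map1lc3a, at 1.00 ± 0.07. Among those called lower, Map1lc3b was at -0.39 ± 0.04 and Gabarapl1 at -0.33 ± 0.03. Atg3, at -0.13 ± 0.03, was not called under scaling by library size alone, and Gabarapl2, at -0.11 ± 0.04, lost its call in 10 of 16 alternatives. Of 9 tested genes of prenylation and CaaX processing, 2 were called higher, 1 was called lower and 6 were not called, with a median of 0.07. This list also covers the prenylation of Rab proteins, to which Rabggta belongs, and not that of GBPs alone. The farnesyltransferase subunits Fntb and Fnta changed by 0.19 ± 0.05 and 0.11 ± 0.04, and Rabggta by -0.53 ± 0.08, whereas Zmpste24, at 0.08 ± 0.04, was not called here but was in 6 of 16 alternatives. The call of Fnta ended without GFPsg replicate 1 (adjusted p = 0.105 by edgeR, over alternatives 6.5e-05 to 0.105). The count for this list was 7 of 9 instead of 3 under scaling by library size alone.

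Genes of the inflammasome and of pyroptosis, the downstream arm of GBP action, held calls in either direction, as did the whole table. Of 15 listed, 9 were tested, of which 4 were called higher, 3 were called lower and 2 were not called, with a median log2 change of 0.03, beside 24.7% of all tested genes called higher and 26.3% lower. With 9 genes, nothing is read from that split. Zbp1, a sensor of Z-form nucleic acid, averaged 3.01 ± 0.19 CPM with guide 1 and 2.43 ± 0.33 CPM with guide 2, against 0.0623 ± 0.032 CPM in GFPsg (log2 change 5.42 ± 0.25, SE). It had 13 reads over all of GFPsg, at most 0.0900 CPM in a library. That is under the minimum of the filter on low counts, so Zbp1 passed through labelled knockout libraries alone. The pore-forming gasdermin Gsdmd was at 1.27 ± 0.15, the caspase gene Casp4 at 0.57 ± 0.16 and the cytokine gene Il18 at 0.33 ± 0.08. Pycard, which encodes the inflammasome adaptor ASC, was at -1.03 ± 0.07, Casp1 at -3.01 ± 0.53 and Casp8 at -0.11 ± 0.04. Casp1 rested on 9 reads with guide 1 and 17 reads with guide 2, against 95 reads in GFPsg, and was at -3.94 without Tada2bsg2 replicate 3. Its level was at most 0.0513 CPM in a guide 1 library and fell to 0 in a guide 2 library, against at least 0.311 CPM in GFPsg. Casp1 therefore passed the filter on low counts through GFPsg, and was tested only because it was high there. The call of Casp8 was lost in 7 of 16 alternatives. Leaving out GFPsg replicate 1 ended the call of Casp4 (adjusted p = 0.0586 by edgeR, over alternatives 0.0029 to 0.0586).

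Of 12 tested relatives of the GBPs in the dynamin superfamily, 5 were called higher, 3 were called lower and 4 were not called, with a median log2 change of 0.03. Over all tested genes 24.7% were called higher and 26.3% lower, so the share called lower was near that of the whole table. The interferon-induced antiviral GTPases Mx2 and Mx1 changed by 2.48 ± 0.11 and 1.70 ± 0.12. The atlastins, which shape the endoplasmic reticulum and are close structural relatives of GBPs, differed among themselves, with Atl2 at 0.61 ± 0.03, Atl3 at 0.33 ± 0.03 and Atl1 at -0.35 ± 0.06. Atl2 was called lower with guide 2 than with guide 1 (log2 difference -0.16, adjusted p = 0.0319 by edgeR). Mfn2, which fuses mitochondria, was at 0.47 ± 0.04, Opa1 at -0.23 ± 0.03 and Dnm3 at -0.96 ± 0.17.

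**Figure D5:**
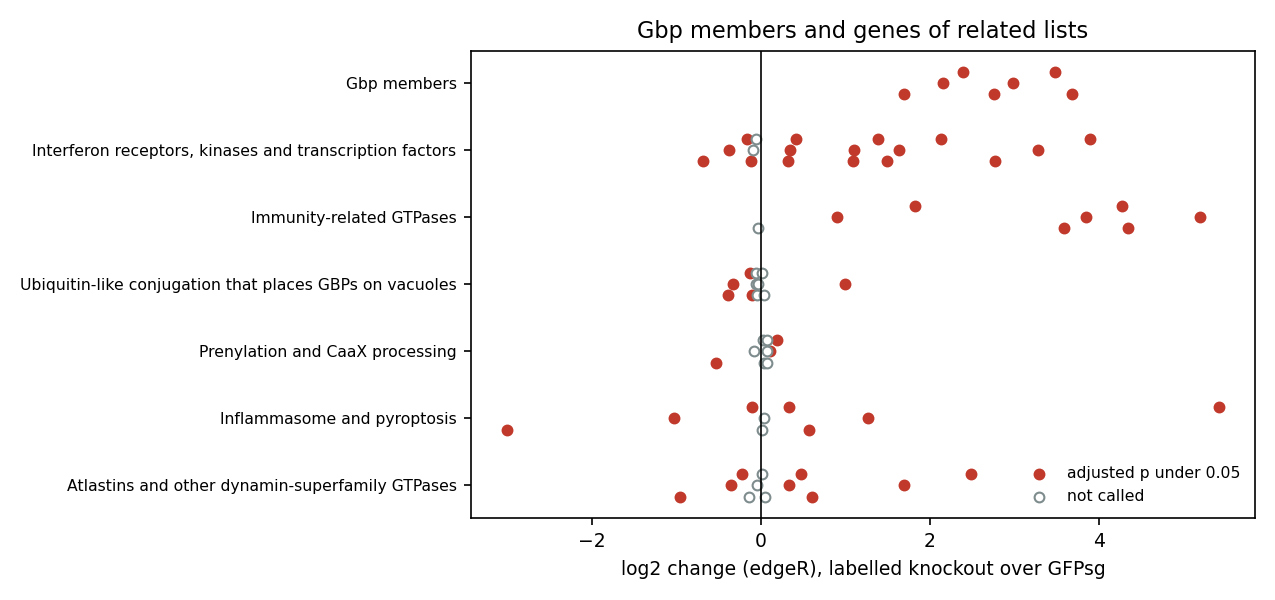
Log2 change in the knockout contrast of each tested Gbp member (top row) and of each tested gene of 6 related lists (filled, adjusted p under 0.05; open, not called). The 7 members and 7 of 8 IRGs lie to the right of 0, while the other lists spread to both sides.

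Markers of other cell types were checked because immune cells express GBPs. Of 13 leukocyte markers, Ptprc and Itgam had no reads in any library. Adgre1 had 1 read with guide 2 and Itgax 1 read with guide 1, and neither had reads in the other groups. The summed level of the 13 was 7.12 to 7.61 CPM with guide 1 and 6.28 to 6.60 CPM with guide 2, against 3.80 to 4.15 CPM in GFPsg. Most of that sum came from Cd68, at 3.93, 3.88 and 1.83 CPM in the same groups, and Lyz2, at 2.51, 1.76 and 0.993 CPM. Of the 5 that could be tested, Cd68, Lyz2 and Cx3cr1 were called higher, Fcer1g lower and Spi1 was not called. The 8 markers of fibroblasts and endothelium summed to 13.4 to 14.2 CPM with guide 1 and 12.7 to 15.0 CPM with guide 2, against 6.16 to 8.74 CPM in GFPsg. Of the 3 tested, Pdgfrb was called higher, Vwf lower and Pdgfra was not called. Over all tested genes 24.7% were called higher and 26.3% lower, and nothing is read from the calls of so few markers. The part of these markers other than Ptprc and Itgam, and of the lower melanocytic markers, in the GBP differences was not tested. In RNA from whole cultures, more cells that express a gene and more RNA per cell cannot be told apart.

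Finally, 9665 genes with a mean of at least 5 CPM, leaving out Gbp genes and names that start with Gm or end with Rik, were compared with the mean profile of the tested members over the 9 libraries, by Euclidean distance between log2 CPM values centred per gene. The 5 nearest genes were Ifi27 at 0.250, Cnn2 at 0.253, Sema3e at 0.269, Nqo1 at 0.273 and Pcolce2 at 0.295. Ifi27, an interferon-induced gene, averaged 178 ± 8.08 CPM with guide 1 and 154 ± 3.88 CPM with guide 2, against 35.4 ± 1.74 CPM in GFPsg. Cnn2 encodes an actin-binding calponin, Sema3e a secreted semaphorin, Nqo1 a quinone reductase and Pcolce2 an enhancer of collagen processing. The members' own distances to their mean profile ran from 0.351 for Gbp7 to 1.56 for Gbp4, so single members were farther from it than these 5 genes. The mean profile includes Gbp4, Gbp5 and Gbp9, which passed the filter on low counts through labelled knockout libraries alone. With so few reads in GFPsg, their log2 CPM values there depend on the prior count of 2, and so do the distances.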

How the data were processed

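RNA of 9 B16F10 libraries was extracted with RNeasy Plus Mini kits and made into libraries with KAPA Stranded mRNA-Seq kits, per the labels' protocols. The authors deposited raw counts of reads per gene. Per the submitters' processing notes the tools were bcl2fastq, HISAT2 and HTSeq with mm10. Versions, annotation, strand setting and the handling of multiply aligned reads are not given in the sources used here, so near-identical and overlapping genes may be split or undercounted. Of 54752 rows, 54723 matched GENCODE M21 by Ensembl ID, 29 did not, and 22617 were 0 throughout.

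Genes were filtered with filterByExpr (count minimum 10), which kept 17931 genes holding 99.97% of counts, scaled by TMM and tested with edgeR 4.0.16 (R 4.3.3) by quasi-likelihood F tests in 1 fit of all 3 groups (6 residual degrees of freedom). Calls had a Benjamini-Hochberg adjusted p under 0.05 over all genes tested, and standard errors were derived from the F statistics. Replicates differed beyond sampling noise (chi-square per degree of freedom 7.12 to 22.7). Ratios of pooled reads have exact 95% intervals, which cover counting error only. The script was tested on simulated counts. Alternatives were other scalings, filters, samples, DESeq2 1.42.0, limma 3.58.1 voom, a replicate block and leaving out each library. Transcript stretches and coding identity were computed from the reference genome and GENCODE M21, and promoter windows came from RefSeq (GRCm38.p6).

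The members and lists were chosen with earlier results of these data known. The genes named are the members, the other Gbp genes, Tada2b, up to 4 tested genes per list with the lowest p, any called in a direction with 5 or fewer, and the 5 nearest patterns. A gene picked by this rule is not reported here. The protein sequences of the members were not used here.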

Additional observations from a re-analysis of the deposited data

How the results depend on the processing

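All calls of Gbp2, Gbp3, Gbp6 and Gbp7 against GFPsg kept their direction and their side of the threshold under the 17 alternatives run, as did those of Gbp5 and Gbp9 wherever they passed the filter and Gbp4 with guide 1 and in the knockout contrast. In the knockout contrast the log2 change ranged from 1.66 to 1.78 for Gbp2, 2.13 to 2.25 for Gbp3, 2.37 to 2.48 for Gbp7 and 3.28 to 3.67 for Gbp6. With a count minimum of 50, members called fell to 4 in the knockout contrast, 4 with guide 1 and 4 with guide 2, because only 4 were left to test. Without any 1 library, 7 members stayed called in the knockout contrast, 7 with guide 1, 6 with guide 2 and 0 between the guides; the one lost was Gbp4, whose adjusted p with guide 2 was also 0.140 with no filter and 0.117 by DESeq2. Genes called without any 1 library numbered 8184 to 9225 in the knockout contrast, 7800 to 9045 with guide 1 and 7176 to 8019 with guide 2. Between the guides 660 genes were called, 1070 with no filter, and 335 to 808 without any 1 library (345 without Tada2bsg1 replicate 2, 335 without Tada2bsg1 replicate 3, 399 without Tada2bsg2 replicate 2). The uncalled difference of Gbp5 between the guides (-0.03) ranged from -0.22 to 0.25 without any 1 library and was 0.0037, 0.012 and 0.25 without Tada2bsg1 replicate 1, Tada2bsg1 replicate 3 and Tada2bsg2 replicate 2. The cause was not tested.

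Deviations from the group means had correlations of -0.012 to 0.100 (median 0.031) over 9 pairs of same-numbered libraries. Over 18 other pairs they ran from -0.088 to 0.041 (median -0.016). The labels do not say that a number is a shared culture or day, so the main fit did not pair the samples. A replicate block was run as an alternative, and whether same-numbered libraries share a factor was not tested. With the replicate block 1705 genes were called between the guides, and 9938, 9512 and 9023 in the knockout contrast, with guide 1 and with guide 2. The main fit, without the block, called fewer in each, 660, 9141, 8677 and 8092 in the same order. The block ended the call of Gbp4 with guide 2 (adjusted p = 0.0671 by edgeR, over alternatives 0.0221 to 0.165) and changed no other member call. Depth limits Gbp4, Gbp5, Gbp8 and Gbp9, which had at most 4 reads in any GFPsg library.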
